A study of Mus musculus with 18 samples.

Results

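Zonation genes are genes that hepatocytes switch on at 1 end of the liver lobule and keep low at the other. The 10 described here were picked by symbol out of the 55487 genes counted in 18 mouse livers. Glul, Oat, Cyp1a2, Axin2, Tbx3, Slc1a2 and Rhbg are the 7 pericentral members, expressed around the central vein, and Hal, Sds and Gls2 are the 3 periportal members, expressed near the portal tract. All livers came from male C57BL/6J mice that were injected, 1 week before the diet began, with an AAV8 vector whose TBG promoter is active in hepatocytes. CON-GFP mice (n = 6) received the GFP vector and ate a purified control diet for 16 weeks. FPC-GFP mice (n = 6) received the GFP vector and ate the FPC diet, which is rich in fructose, palmitate and cholesterol and was given with sugar in the drinking water. FPC-LIPA mice (n = 6) ate the FPC diet and received the vector carrying human LIPA, which encodes lysosomal acid lipase, the enzyme that cleaves cholesteryl esters and triglycerides in lysosomes. Each mouse gave 1 bulk liver RNA-seq library, so cells of all kinds were lysed together and position in the lobule was not measured.

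Blood enters the lobule at the portal tract and leaves through the central vein, and oxygen, nutrients and hormones fall along the way. Endothelial cells of the central vein release Wnt ligands and R-spondin, which keep beta-catenin active in the hepatocytes around them and turn on the pericentral programme. Periportal hepatocytes break down amino acids, make glucose and run the urea cycle, and the ammonia that escapes is captured as glutamine by the last rows of cells before the central vein. Glucagon favours the periportal programme.

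Total counts per library ran from 17741598 to 33588153 in CON-GFP, from 17813507 to 31134367 in FPC-GFP and from 16632146 to 37739301 in FPC-LIPA. The 9 hepatocyte markers, with Alb in the lead, summed to between 54156 and 110300 CPM (counts relative to the TMM-scaled total of the library) in the 18 livers and none was at 0, so the tissue matched its label. Among these markers, Cps1 is also in the wider periportal and urea cycle lists below, and Tat in the glucagon list. FPC-LIPA 36, 37 and 39 stood apart from the other libraries, since the 83 cytosolic ribosomal protein genes took 6.22, 7.93 and 7.86% of their counts, against 1.32 to 2.73% in the other 15. Their 5 red blood cell markers summed to 1818, 1928 and 2676 CPM, against 283 to 954 CPM in the other 15, and the 7 stellate cell markers reached 1077 CPM in FPC-LIPA 37, against 172 to 487 CPM elsewhere. FPC-LIPA 37 also differed in its labels, which call it 37b and give it a library number far outside the range of the others, 55 to 80, and it had the lowest total count of the 18. Tests of FPC-LIPA are therefore given with and without these 3 libraries, while levels and correlations keep all 18. Mouse Lipa, at 300 ± 44.8 CPM in FPC-LIPA and 336 ± 59.3 CPM in FPC-GFP (SD, n = 6), does not check the vector label, because the human transgene has no row of its own.

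Promoters of 6 of the 10 members (Glul, Oat, Cyp1a2, Axin2, Slc1a2 and Hal) were matched by symbol in the RefSeq set for GRCm38.p6, and Tbx3, Rhbg, Sds and Gls2 were not matched. The 250 bases upstream of the RefSeq start, 5′ to 3′ on the strand of the gene, are printed for Oat, Cyp1a2, Slc1a2 and Hal, the 4 members whose levels did not overlap between FPC-GFP and CON-GFP (chosen after their values were seen). Capitals mark the letters CTTTG or CAAAG of the TCF/LEF core, through which beta-catenin acts, its 7-letter form CTTTGAT or ATCAAAG, the aryl hydrocarbon receptor core GCGTG or CACGC, and the TATA box TATAAA or TTTATA, on either strand.
Oat (chr7:132576399-132576648): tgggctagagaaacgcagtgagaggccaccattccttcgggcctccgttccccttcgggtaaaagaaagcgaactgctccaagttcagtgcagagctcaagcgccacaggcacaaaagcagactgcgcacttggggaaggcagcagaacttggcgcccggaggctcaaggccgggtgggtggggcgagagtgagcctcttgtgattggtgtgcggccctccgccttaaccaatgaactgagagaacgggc
Cyp1a2 (chr9:57683656-57683905): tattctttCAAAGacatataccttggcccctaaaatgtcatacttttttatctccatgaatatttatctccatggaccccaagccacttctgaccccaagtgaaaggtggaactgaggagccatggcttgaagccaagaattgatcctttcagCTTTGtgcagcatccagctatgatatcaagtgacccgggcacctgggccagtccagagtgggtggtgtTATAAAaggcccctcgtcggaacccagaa
Slc1a2 (chr2:102706188-102706437): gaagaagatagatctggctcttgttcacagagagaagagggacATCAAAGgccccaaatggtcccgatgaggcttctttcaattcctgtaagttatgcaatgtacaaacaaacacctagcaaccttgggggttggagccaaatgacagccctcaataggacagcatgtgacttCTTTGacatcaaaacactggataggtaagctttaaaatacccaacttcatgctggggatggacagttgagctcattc
Hal (chr10:93488518-93488767): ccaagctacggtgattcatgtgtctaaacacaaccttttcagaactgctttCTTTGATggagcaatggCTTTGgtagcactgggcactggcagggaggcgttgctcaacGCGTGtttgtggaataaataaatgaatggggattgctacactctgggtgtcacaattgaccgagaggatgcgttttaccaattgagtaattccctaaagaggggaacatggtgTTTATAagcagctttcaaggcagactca
The TCF/LEF core occurred at 2 places each in Cyp1a2, Slc1a2 and Hal and nowhere in the window of Oat, Glul or Axin2, while 48.6% of all 32851 RefSeq promoters of this length hold it. The 7-letter form, whose matches also count for the core, occurred in Slc1a2 and Hal, against 3.21% of all promoters. Hal also held the aryl hydrocarbon receptor core, found in 28.2% of promoters, and Hal and Cyp1a2 each held a TATA box, found in 12.4%, with its first base 28 and 29 bases before the start. The windows of Glul, Oat and Axin2 were rich in CpG, with 15, 14 and 24 CpG dinucleotides and a GC content of 64.8% in Glul and 69.2% in Axin2. Those of Cyp1a2, Slc1a2 and Hal held 3, 1 and 6 CpG at 47.2, 44.8 and 45.6% GC, beside a median of 6 CpG and 52.4% GC over all promoters. The RefSeq starts used for Slc1a2 and Cyp1a2 lie inside the GENCODE genes, so that all 250 bases of the Slc1a2 window and the last 48 of the Cyp1a2 window, with its TATA box, belong to the annotated gene. These matches describe the letters of the windows and not sites of binding.

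The first question was what the FPC diet did in livers that carried the GFP vector. Of the 10 zonation genes, 7 were significantly lower in FPC-GFP than in CON-GFP by edgeR's quasi-likelihood test at an adjusted p under 0.05 and none was higher, while 10.9% of the 14307 genes tested were called lower. The 7 were the pericentral genes Oat, Cyp1a2, Slc1a2 and Rhbg and all 3 periportal genes, so genes of both ends of the lobule fell. Glul, Axin2 and Tbx3, 3 pericentral genes, did not pass the test. The median log2 fold change was -0.82 over the 7 pericentral and -1.19 over the 3 periportal genes, beside 0.01 over all genes tested. All 10 members passed the filter on low counts in each of the 3 comparisons. In bulk tissue, fewer cells expressing a gene and less RNA per cell cannot be told apart.

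**Figure D1:**
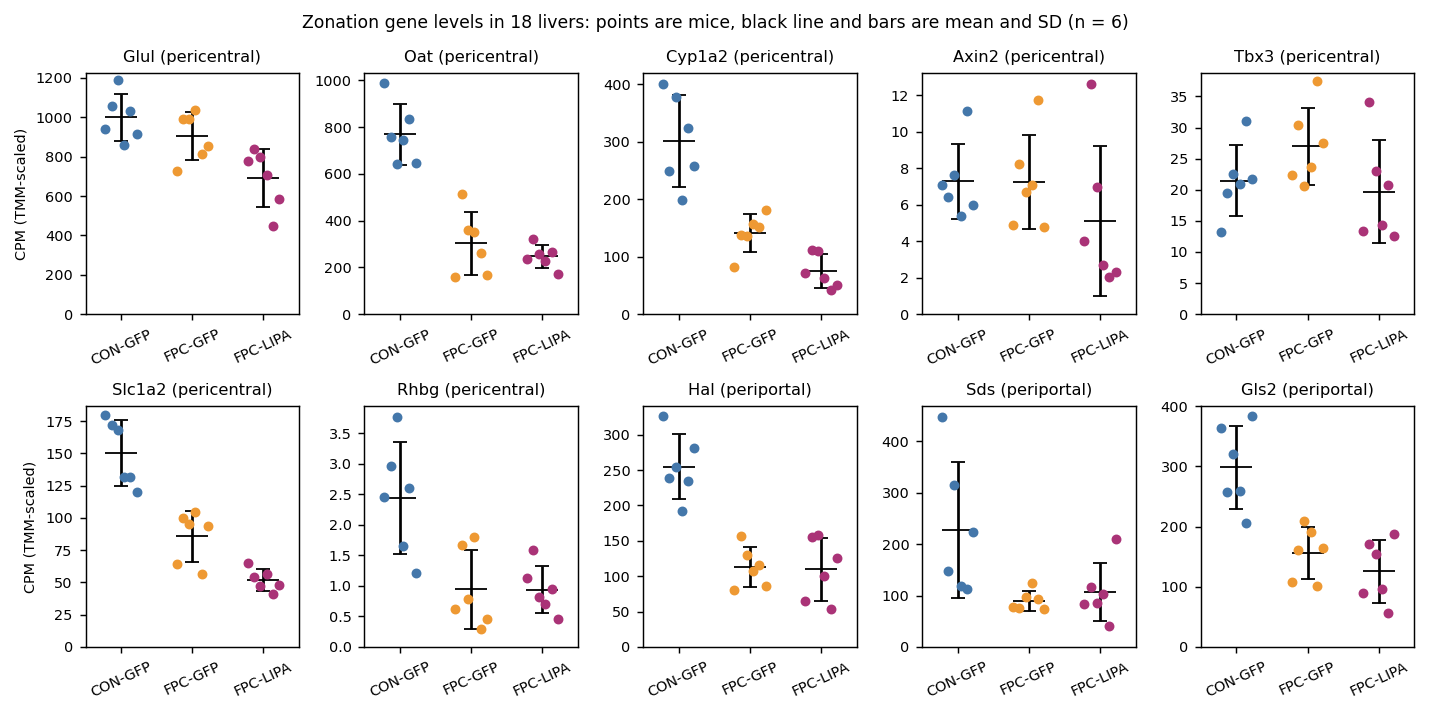
CPM (linear axis from 0) of each of the 10 zonation genes in CON-GFP, FPC-GFP and FPC-LIPA livers, 1 point per mouse, with the mean and SD (n = 6) as a black line and bars. The CON-GFP points of Oat, Cyp1a2, Slc1a2 and Hal lie above all FPC-GFP points, whereas those of Glul, Axin2 and Tbx3 overlap them.

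Glutamine synthetase, encoded by Glul (ENSMUSG00000026473, GRCm38 chromosome 1, 153899944 to 153909723, plus strand), joins ammonia to glutamate and marks the innermost pericentral cells. Its level was 858, 987 and 1187 CPM (lowest, median and highest mouse) in CON-GFP and 728, 922 and 1036 CPM in FPC-GFP. These ranges overlapped, and the log2 fold change of -0.16 ± 0.12 (SE) was not significant (edgeR adjusted p = 0.370). FPC-LIPA livers ran lower, at 449, 742 and 838 CPM, and FPC-LIPA 36, 37 and 39 were the 3 lowest of the 18.

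Ornithine aminotransferase, encoded by Oat (ENSMUSG00000030934, chromosome 7, 132557478 to 132576398, minus strand), converts ornithine to glutamate semialdehyde in the same pericentral cells. Its lowest, median and highest levels were 643, 751 and 989 CPM in CON-GFP, against 160, 307 and 515 CPM in FPC-GFP and 174, 247 and 323 CPM in FPC-LIPA. Every mouse on the FPC diet, with either vector, lay below every mouse on the control diet. Oat fell in FPC-GFP by 1.35 ± 0.25 on the log2 scale (edgeR adjusted p = 0.00217). Within FPC-GFP the level still differed 3.21-fold between the lowest mouse, number 11, and the highest, number 12, against 1.54-fold within CON-GFP.

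Cyp1a2 (ENSMUSG00000032310, chromosome 9, 57676937 to 57683703, minus strand) encodes a P450 that oxidises caffeine and aromatic amines and is under both beta-catenin and the aryl hydrocarbon receptor. It stood at 198, 291 and 401 CPM in CON-GFP, against 82.2, 145 and 181 CPM in FPC-GFP and 41.3, 67.9 and 112 CPM in FPC-LIPA. CON-GFP and FPC-GFP did not overlap, and Cyp1a2 fell on the diet by 1.11 ± 0.20 on the log2 scale (edgeR adjusted p = 0.00177). FPC-GFP 11 was the lowest of its group, as it was for Oat.

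Slc1a2 (ENSMUSG00000005089, chromosome 2, 102658659 to 102790784, plus strand), also called Glt1, carries glutamate into the cells that make glutamine. Its level was 120, 150 and 180 CPM in CON-GFP, against 56.9, 94.2 and 104 CPM in FPC-GFP and 40.7, 51.1 and 65.3 CPM in FPC-LIPA. No FPC-fed mouse reached the control range, and the diet change was -0.82 ± 0.17 (edgeR adjusted p = 0.00342). Rhbg (ENSMUSG00000104445, chromosome 3, 88242874 to 88254709, minus strand), an ammonia transporter, was the member with the lowest level per length, at 1.21, 2.53 and 3.77 CPM in CON-GFP, against 0.30, 0.701 and 1.81 CPM in FPC-GFP. It fell by 1.36 ± 0.41 on the log2 scale (edgeR adjusted p = 0.0257) although the groups overlapped. This call was lost without CON-GFP 3, FPC-GFP 11 or FPC-GFP 13 (adjusted p between 0.0503 and 0.0570), and 1190 of the 1937 exon bases of Rhbg also belong to Gm38392 on the same strand, so its level is uncertain.

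Axin2 and Tbx3 are direct targets of beta-catenin. Axin2 (ENSMUSG00000000142, chromosome 11, 108920349 to 108950783, plus strand) encodes a scaffold that feeds back on beta-catenin breakdown, and its level was 5.40, 6.77 and 11.2 CPM in CON-GFP, against 4.77, 6.89 and 11.8 CPM in FPC-GFP. The difference of -0.02 ± 0.23 (edgeR adjusted p = 0.961) was within the spread between mice, and its sign changed when libraries were scaled by total count alone (0.18) or by upper-quartile factors (0.01). Tbx3 (ENSMUSG00000018604, chromosome 5, 119670669 to 119684724, plus strand), a T-box repressor, stood at 13.2, 21.3 and 31.1 CPM in CON-GFP, against 20.6, 25.5 and 37.4 CPM in FPC-GFP. It was the only member with a higher mean in FPC-GFP, and its log2 fold change of 0.32 ± 0.18 was not significant (edgeR adjusted p = 0.216).

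The 3 periportal genes encode enzymes that break down single amino acids. Hal (ENSMUSG00000020017, chromosome 10, 93488768 to 93519304, plus strand) encodes histidine ammonia-lyase, the first step of histidine breakdown. Its level was 192, 247 and 327 CPM in CON-GFP, against 80.2, 111 and 156 CPM in FPC-GFP and 54.2, 113 and 158 CPM in FPC-LIPA. No mouse on the FPC diet reached the control range, and Hal fell in FPC-GFP by 1.19 ± 0.17 on the log2 scale, with the smallest adjusted p of the 10 members (edgeR adjusted p = 0.000462).

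Sds (ENSMUSG00000029597, chromosome 5, 120476526 to 120483932, plus strand) encodes serine dehydratase, which turns serine into pyruvate and is induced by glucagon. In the control group it stood at 113, 185 and 448 CPM, and CON-GFP 1 was 3.96-fold above CON-GFP 7. FPC-GFP livers held 73.2, 84.6 and 124 CPM, so the ranges overlapped through FPC-GFP 16 alone, and Sds fell by 1.35 ± 0.30 (edgeR adjusted p = 0.00618). Gls2 (ENSMUSG00000044005, chromosome 10, 128194457 to 128210004, plus strand) encodes the liver-type glutaminase, which frees ammonia from glutamine for the urea cycle. Its level went from 206, 290 and 384 CPM in CON-GFP to 101, 162 and 210 CPM in FPC-GFP, a change of -0.95 ± 0.20 (edgeR adjusted p = 0.00421), and the ranges overlapped by a single mouse on each side.

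Of the 10 members, 4 (Oat, Cyp1a2, Slc1a2 and Hal) were lower with no overlap between FPC-GFP and CON-GFP, beside 4.41% of all genes tested. With a change of at least 2-fold also required, 5 (Oat, Cyp1a2, Rhbg, Hal and Sds) were called lower, beside 2.44% of all genes. The 9 hepatocyte markers had a median log2 fold change of -0.30 in this comparison and 2 of them (Serpina1a and Tat) fell, while Kupffer cell markers summed to 103 to 216 CPM in CON-GFP, against 305 to 513 CPM in FPC-GFP. Their part in the change of the zonation genes was not tested. Within the libraries with consecutive numbers 55 to 68 in the labels (4 CON-GFP and 5 FPC-GFP), 6 of the 7 calls held, and Rhbg had an adjusted p of 0.125.

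**Figure D2:**
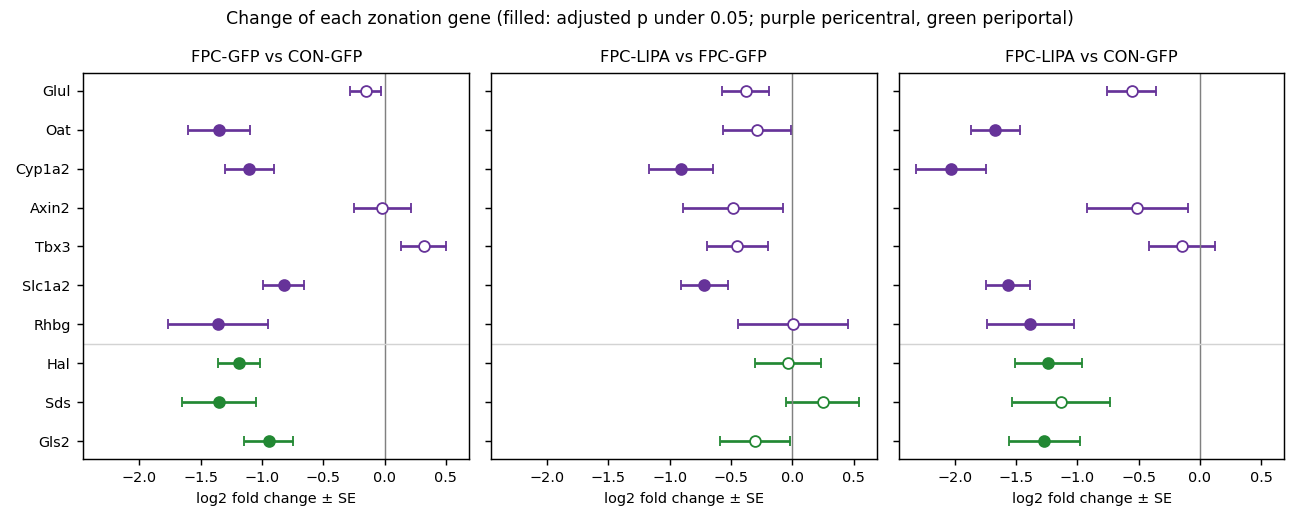
Log2 fold change with its standard error for the 10 zonation genes in FPC-GFP against CON-GFP, FPC-LIPA against FPC-GFP and FPC-LIPA against CON-GFP, pericentral genes in purple and periportal in green. Filled points passed an edgeR adjusted p of 0.05, and 7, 2 and 6 of the 10 are filled, all to the left of 0.

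The second comparison asked what the LIPA vector did on the FPC diet. Of the 10 members, 2, the pericentral genes Cyp1a2 and Slc1a2, were lower with LIPA than with GFP and none was higher, beside 6.87% of the 14620 genes tested that were called lower and 14.4% called higher. None of the 3 periportal genes passed the test. None of the 10 was lower at 2-fold or more, beside 1.11% of all genes. Every member's FPC-LIPA range overlapped its FPC-GFP range, beside 3.76% of genes that were lower without overlap. The median log2 fold change was -0.45 over the pericentral and -0.04 over the periportal members and 0.04 over all genes. Over the 9 hepatocyte markers it was -0.42, the value of Cps1, and it lay between -0.61 and -0.20 over the 22 alternatives. The pericentral median was thus close to that of the hepatocyte markers, and the part of the latter was not tested. The comparison shares the FPC-GFP libraries with the diet comparison, so the same high or low FPC-GFP mice enter both.

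Cyp1a2 fell by 0.91 ± 0.26 on the log2 scale (edgeR adjusted p = 0.0297), and Slc1a2 by 0.72 ± 0.19 (edgeR adjusted p = 0.0230). For Cyp1a2 the 5 highest FPC-GFP mice, at 136 CPM or more, lay above all FPC-LIPA mice, and FPC-GFP 11, at 82.2 CPM, lay within them. For Slc1a2 the overlap came from FPC-GFP 11 and 19, at 64.4 and 56.9 CPM, beside a highest FPC-LIPA level of 65.3 CPM. Without FPC-GFP 12, 13 or 20 neither gene passed the test, Cyp1a2 with adjusted p of 0.0557, 0.0535 and 0.0647 and Slc1a2 with 0.0536, 0.0503 and 0.0504. Cyp1a2 alone was lost when FPC-GFP 16, FPC-GFP 19, FPC-LIPA 36, FPC-LIPA 37 or FPC-LIPA 39 was left out, with adjusted p between 0.0528 and 0.0689. With FPC-LIPA 36, 37 and 39 all left out, the log2 fold changes were -0.52 for Cyp1a2 (adjusted p = 0.256) and -0.62 for Slc1a2 (adjusted p = 0.143), and none of the 10 members was called by edgeR, with 2 lower at an unadjusted p under 0.05.

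**Figure D3:**
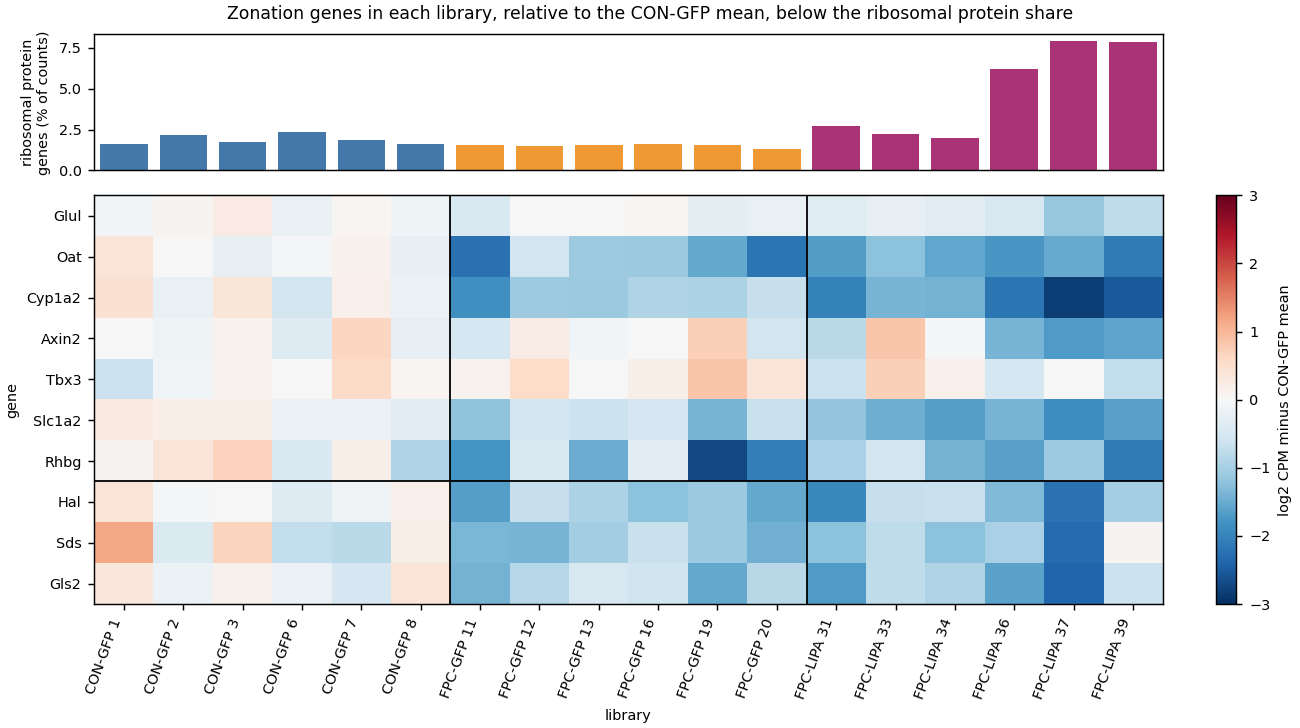
Bars give the share of counts from 83 ribosomal protein genes (% of counts) in each of the 18 libraries, and the map below gives each zonation gene's log2 CPM minus its CON-GFP mean, with blue below and red above. Oat, Cyp1a2, Slc1a2 and Hal are blue in all 12 FPC-fed livers, and the darkest cells of Cyp1a2 and Axin2 in FPC-LIPA fall under the 3 tallest bars.

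Axin2 split the FPC-LIPA group. Its levels were 4.04, 12.6 and 6.97 CPM in FPC-LIPA 31, 33 and 34 and 2.68, 2.07 and 2.30 CPM in FPC-LIPA 36, 37 and 39. The highest and the 3 lowest values of all 18 livers thus stood in this group, a 6.12-fold range. FPC-LIPA 31 also lay below every CON-GFP and FPC-GFP liver, of which FPC-GFP 20 was the lowest at 4.77 CPM. The log2 fold change against FPC-GFP was -0.49 ± 0.41 (edgeR adjusted p = 0.386). Without FPC-LIPA 33 it was -0.99 (adjusted p = 0.0311), and without FPC-LIPA 36, 37 and 39 it was 0.13 (adjusted p = 0.874). Tbx3, at 12.5, 17.6 and 34.2 CPM in FPC-LIPA, was also highest in FPC-LIPA 33, and its change of -0.45 ± 0.25 (edgeR adjusted p = 0.189) became -0.68 (adjusted p = 0.0239) without that library. FPC-LIPA 33 was the highest of its group for 6 of the 10 members, and FPC-LIPA 37, the library with the highest ribosomal protein share, was the lowest for 7. The part of the ribosomal protein share and of the red blood cell and stellate markers in these values was not tested.

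The other members did not pass the test between the vectors. Glul changed by -0.38 ± 0.19 (edgeR adjusted p = 0.148) and Oat by -0.29 ± 0.27 (0.444), while Rhbg, at 0.452, 0.887 and 1.58 CPM in FPC-LIPA, had an estimate of 0.00 ± 0.45 (0.997). Among the periportal genes, Hal changed by -0.04 ± 0.27 (0.931), Sds by 0.25 ± 0.30 (0.553) and Gls2 by -0.30 ± 0.29 (0.441). Sds stood at 40.4, 93.4 and 210 CPM and Gls2 at 55.9, 126 and 188 CPM in FPC-LIPA, with FPC-LIPA 39 highest and FPC-LIPA 37 lowest for both genes. The monocyte and macrophage markers summed to between 409 and 795 CPM in FPC-LIPA livers, against 104 to 302 CPM in FPC-GFP, and the hepatocyte markers to 54156 to 88118 and 64703 to 93403 CPM, with 1 of 9 hepatocyte markers (Hnf4a) lower. Their part in the values of the zonation genes was not tested.

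Against CON-GFP, FPC-LIPA livers differed in both diet and vector. Oat, Cyp1a2, Slc1a2, Rhbg, Hal and Gls2, 6 of the 10 members, were lower and none was higher, beside 8.20% of the 14433 genes tested that were called lower and 14.7% called higher. All 6 changes were at least 2-fold, beside 3.25% of all genes. The change was -2.03 ± 0.29 for Cyp1a2 (edgeR adjusted p = 0.000295), -1.67 ± 0.20 for Oat (8.75e-05) and -1.57 ± 0.18 for Slc1a2 (6.11e-05). Rhbg changed by -1.38 ± 0.35 (0.0123), Hal by -1.24 ± 0.27 (0.00545) and Gls2 by -1.27 ± 0.29 (0.00656). Glul, at -0.56 ± 0.20 (0.0541), and Sds, at -1.13 ± 0.40 (0.0532), missed the threshold narrowly. Glul, Oat, Cyp1a2, Slc1a2, Hal and Gls2 did not overlap between the groups, 6 of 10 beside 4.84% of all genes that were lower without overlap. Without FPC-LIPA 33, 9 members were called, Axin2 among them at -1.03 (adjusted p = 0.0267), whereas without FPC-LIPA 36, 37 and 39 there were 5, with Rhbg at -1.04 (adjusted p = 0.0770). Single libraries also moved Glul, called without FPC-LIPA 34 (adjusted p = 0.0488), and Sds, called without CON-GFP 6, CON-GFP 7 or FPC-LIPA 39 (adjusted p between 0.0224 and 0.0423). With no library left out, DESeq2's Wald test called Glul (adjusted p = 0.0086). So did edgeR in 1 fit of all libraries (0.0203), with the length trend removed (0.0304) or with DESeq2 size factors (0.0469). Sds was called in the same alternatives and with no filter. Upper-quartile and total-count scaling called neither gene. The 9 hepatocyte markers had a median of -0.98 in this comparison and 5 of them (Serpina1a, Fgb, Tat, Hnf4a and Cps1) were lower, beside a median of -1.25 over the 10 members, and without FPC-LIPA 36, 37 and 39 their median was -0.61 with 4 lower. The -0.98 was the value of Cps1, itself a gene of the wider periportal list. Monocyte and macrophage markers summed to 39.5 to 95.7 CPM in CON-GFP, against 409 to 795 CPM in FPC-LIPA, and 5 of 9 endothelial markers were higher. Their part in the change of the zonation genes was not tested. This comparison shares its libraries with the others and adds no independent mice.

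Group means ran CON-GFP, FPC-GFP, FPC-LIPA from high to low for 8 of the 10 genes, counting Rhbg, whose mean was 0.940 CPM in both FPC-GFP and FPC-LIPA. The exceptions were Sds, whose mean was 89.8 ± 19.6 CPM in FPC-GFP and 106 ± 56.7 CPM in FPC-LIPA (SD, n = 6), and Tbx3, with 21.5 ± 5.76, 27.0 ± 6.22 and 19.7 ± 8.27 CPM in the 3 groups. Of these 8, only Cyp1a2 and Slc1a2 passed the test at both steps. The step from FPC-GFP to FPC-LIPA did not pass for Glul, Oat, Axin2, Rhbg, Hal or Gls2, as in Hal with 113 ± 28.3 and 110 ± 44.1 CPM, and that from CON-GFP to FPC-GFP did not pass for Glul or Axin2, with 7.29 ± 2.05 and 7.25 ± 2.59 CPM in Axin2.

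Compared per kilobase of exon, Oat led in CON-GFP livers with a mean level of 326 ± 55.2 CPM per kb, followed by Glul at 301 ± 35.8, whose range overlapped. Cyp1a2 (150 ± 39.4), Sds (134 ± 78.2) and Gls2 (85.9 ± 19.9) came next and overlapped one with the next, and Hal (45.9 ± 8.26) and Slc1a2 (11.5 ± 1.94) each stood clear of their neighbours in this order. The low end held Tbx3 (3.24 ± 0.870), Axin2 (1.32 ± 0.372) and Rhbg (1.26 ± 0.474), where Axin2 overlapped both. In FPC-GFP livers Glul led at 272 ± 36.6 CPM per kb, clear of Oat at 128 ± 57.1, so the pair traded places on the diet. Lengths are the union of annotated exons, and transcript use in liver was not measured.

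Lists of other zonation genes put the members in context. Of 18 wider pericentral genes, 7 fell and 1 rose in FPC-GFP against CON-GFP, with a median log2 fold change of -0.20. Gulo, the last enzyme of ascorbate synthesis, fell by 1.06 ± 0.17, Lect2, a secreted hepatokine, by 1.01 ± 0.20, and Cyp2e1, the ethanol-oxidising P450, by 0.65 ± 0.18. The single riser was Gstm3, a glutathione transferase, at 3.03 ± 0.46. Of 18 wider periportal genes, 8 fell and 1, the protease Ctsc, rose, with a median of -0.55. Pigr, the receptor that carries IgA into bile, fell by 1.50 ± 0.20, Ass1, which joins citrulline and aspartate in the urea cycle, by 1.14 ± 0.22, and the sulfotransferase Sult5a1 by 1.79 ± 0.51. Both lists thus had more falling than rising genes on the diet, beside 10.9% of all genes called lower and 12.9% called higher. The 9 hepatocyte markers, with a median of -0.30 and 2 called lower, lay below the wider pericentral median, and their part was not tested. With total count alone the pericentral median was -0.0030, where the median of all genes was 0.21.

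The members' own pathways were read from further lists, some of which share genes. In the ornithine, proline and urea cycle list, 6 of 12 genes tested fell on the diet, among them Prodh, which oxidises proline (-1.28 ± 0.21), and Asl (-1.08 ± 0.23). Aldh18a1, which starts the synthesis of proline and ornithine from glutamate, rose by 2.21 ± 0.39. Of the 15 genes of glutamine and glutamate handling, which include Rhbg, 5 fell, with the aspartate aminotransferase Got1 at -2.12 ± 0.36. Among 10 genes of histidine and serine breakdown, 4 fell, including Uroc1 (-0.50 ± 0.12), Amdhd1 (-0.59 ± 0.15) and Ftcd (-0.57 ± 0.12), the enzymes that follow Hal in the histidine pathway. Agxt, which links serine to glyoxylate, fell by 1.70 ± 0.28. In the glucagon and gluconeogenic list 3 of 11 fell, namely Tat (-1.48 ± 0.35), Ppargc1a (-1.17 ± 0.28) and Pck1 (-0.85 ± 0.26). Of the 37 listed genes that the naming rule took from the diet calls, 17 were called in all 21 alternatives and none changed sign.

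The Wnt list and the beta-catenin list gave 2 calls of 15 and 4 of 16 on the diet, below or near the share of all genes (10.9% lower and 12.9% higher). The beta-catenin list mixes core parts of the pathway with feedback genes, which lie downstream of it. Of the 15 tested Wnt ligands, R-spondins and receptors, Lgr4, an R-spondin receptor, fell by 0.56 ± 0.13 and Wnt5a, a ligand that mostly acts without beta-catenin, rose by 1.31 ± 0.25, and the other 13 did not pass the test. Among the 16 beta-catenin core and feedback genes, 3 rose (Ccnd1 by 1.63 ± 0.25, Tcf7l1 by 0.67 ± 0.18 and Axin1 by 0.36 ± 0.12) and Csnk1a1 fell by 0.44 ± 0.15. Axin1 and Csnk1a1 passed narrowly (edgeR adjusted p = 0.0474 and 0.0471) and were called in 7 and 8 of 21 alternatives, against 20 for Tcf7l1 and all 21 for Ccnd1. Ctnnb1, which encodes beta-catenin itself, stood at 0.18 ± 0.11 (edgeR adjusted p = 0.256). Of 6 aryl hydrocarbon receptor genes tested, Ahr fell by 0.76 ± 0.21 and Nqo1 rose by 0.80 ± 0.22. Of the 9 markers of central vein and sinusoidal endothelium, Cdh5, Pecam1 and Lyve1 rose, by 1.13 ± 0.13, 0.87 ± 0.15 and 0.80 ± 0.25, and none fell.

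**Figure D4:**
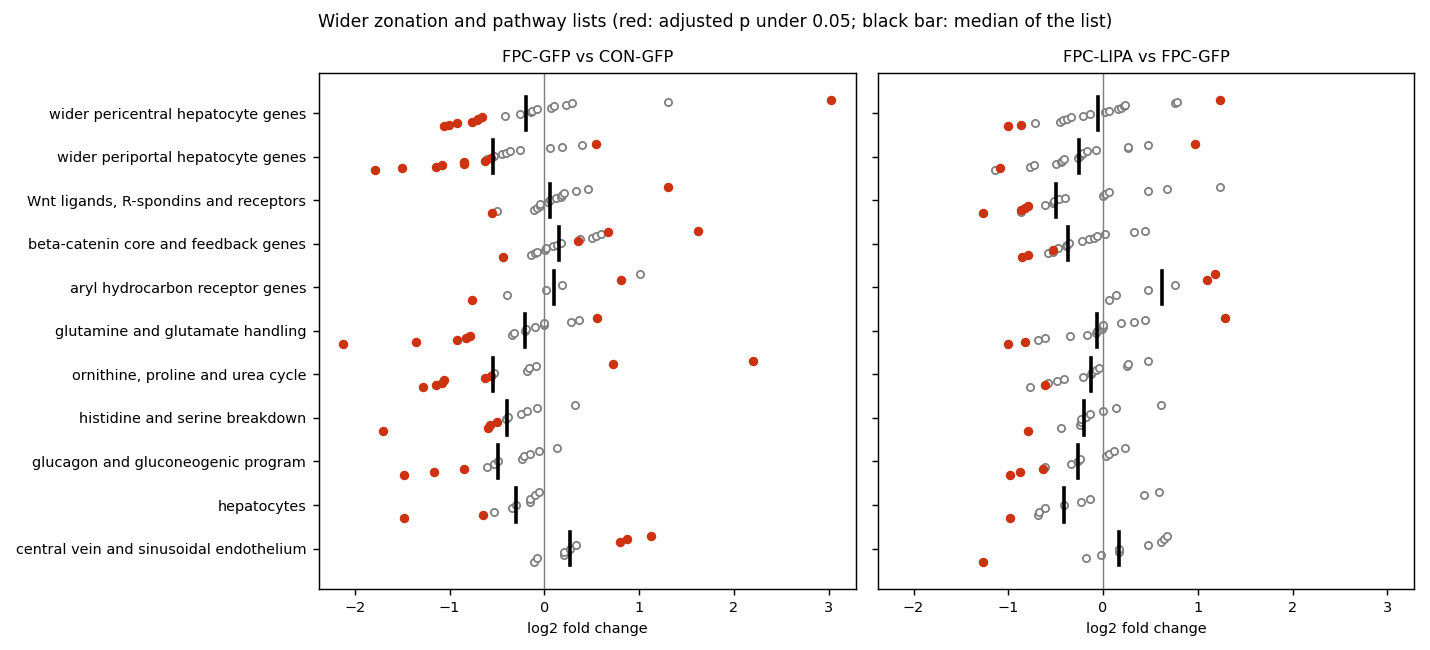
Log2 fold change of each gene in 9 pathway lists and 2 marker lists, for FPC-GFP against CON-GFP and FPC-LIPA against FPC-GFP, with genes past an edgeR adjusted p of 0.05 in red and the list median as a black bar. The medians of the wider periportal list are -0.55 and -0.25, and those of the Wnt list are 0.06 and -0.50.

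With the LIPA vector, 6.87% of all genes were called lower and 14.4% higher, and several of the lists lay near those shares. The calls in the wider pericentral list were 2 lower and 1 higher of 18 (Cyp2c29 and Gulo lower, Akr1c6 higher), and those in the wider periportal list 1 lower and 1 higher of 18 (Cyp2f2 lower, Ctsc higher). In the Wnt list 4 of 16 were lower, and the list median was -0.50. They were the central-vein ligand Wnt9b (-1.26 ± 0.39), the receptors Fzd5 (-0.86 ± 0.19) and Fzd4 (-0.82 ± 0.23) and the co-receptor Lrp6 (-0.80 ± 0.23). Wnt9b was low, at 0.535 CPM in FPC-LIPA and 1.30 CPM in FPC-GFP, and was called in 9 of 22 alternatives. The ligand Wnt2 was higher in FPC-LIPA than in CON-GFP, by 0.66 ± 0.21 (edgeR adjusted p = 0.0324). Against FPC-GFP without FPC-LIPA 36, 37 and 39, Wnt2 stood at 0.54 (edgeR adjusted p = 0.331), Rspo3 at -0.01 and Wnt9b at -0.86. Axin1 (-0.85 ± 0.25), Notum (-0.79 ± 0.25) and Gsk3b (-0.53 ± 0.16) were lower among the 16 beta-catenin genes. Nqo1 (1.18 ± 0.35) and Tiparp (1.10 ± 0.30), both targets of the aryl hydrocarbon receptor, were higher, while Cyp1a2, a target of the same receptor, was lower. The amino acid transporter Slc38a3 and the aminotransferase Got2 fell by 1.00 ± 0.30 and 0.82 ± 0.25. In the glucagon list Hnf4a, Cebpa and Foxo1 fell, by 0.98 ± 0.32, 0.88 ± 0.20 and 0.64 ± 0.18. The urea cycle list held 1 lower gene of 13 (Nags, -0.61 ± 0.20) and the histidine and serine list 1 of 10 (Shmt2, -0.79 ± 0.26). With FPC-LIPA 36, 37 and 39 left out, none of the 125 genes of these lists and of the hepatocyte and endothelial markers passed the edgeR test, when 186 genes in the whole table did, and 26 of the 125 had an unadjusted p under 0.05. The 22 named list genes called with LIPA kept their sign in all 22 alternatives, and each lost its call in at least 1 of them. Their sizes were less stable. Without FPC-LIPA 36, 37 and 39, Akr1c6 went from 1.24 to 0.13 and Nqo1 from 1.18 to 0.26, while Fzd5 went from -0.86 to -0.67. Tiparp ranged from 0.27 to 1.23 over the 22 alternatives.

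Some genes followed a member across the 18 livers, as a description over libraries that share scaling and the 3 group differences. Of 9645 candidate genes, Glul was followed most by 1600014C10Rik (Pearson r = 0.95), Carhsp1 and Pgpep1 (both 0.94). After group means were removed, r over the 30 pairs of a member and a follower lay between 0.55 and 0.95. Cyp1a2 was followed by Gulo (0.96), Pipox (0.95) and Ttc38 (0.94), and Gulo was also among the 3 genes nearest to Slc1a2 (0.94), beside Slc35e2 (0.94) and Susd4 (0.93). Oat was nearest to Dmgdh (0.92), Pigr and Gm5096 (both 0.91). Within groups r fell to between 0.59 and 0.60 for these 3, and to 0.55 for Slc1a2 with Gulo and 0.58 with Susd4, whereas it was 0.89 to 0.90 for the 3 genes nearest to Glul. Rhbg was nearest to BC049987 (0.88), Bhmt (0.86) and Gm5096 (0.84). Axin2 was nearest to Prkaca, Rnf167 and Dhrs3 (all 0.89), and Tbx3 to Dlc1 (0.83), Olig1 (0.80) and Oma1 (0.78). Among the periportal genes, Hal was nearest to Pecr and Uroc1 (both 0.93) and Bphl (0.92), Sds to Nr1i2 (0.90), Pim3 (0.89) and Smpd2 (0.88), and Gls2 to Afmid and Gpt (both 0.96) and Prodh (0.95).

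Between members, the median r over 18 livers was 0.62 for the 21 pericentral pairs, 0.62 for the 21 pairs across zones and 0.82 for the 3 periportal pairs. With group means removed these medians were 0.40, 0.24 and 0.72. Hal with Gls2 (0.76), Glul with Cyp1a2 (0.75) and Cyp1a2 with Axin2 (0.73) were the highest pairs of the 45 after that step. Tbx3 with Sds (-0.42) and with Slc1a2 (-0.39) were the lowest.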

How the data were processed

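Liver RNA of 18 male mice was sequenced after TruSeq library preparation, with an unstranded or a stranded kit. Per the labels and the study's methods, the authors trimmed reads with Trimmomatic, aligned them to GRCm38 with HISAT2 2.1.0 and deposited raw read counts per gene from Subread's featureCounts. The strand setting is not given in the sources used here, so Glul, Axin2, Tbx3, Slc1a2, Sds and Gls2, which share exon bases with a gene on the opposite strand, may hold reads of that partner. Another 5 columns were not used.

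Counts of the 12 libraries of each comparison were filtered (filterByExpr), scaled by TMM and tested with edgeR 4.0.16 (R 4.3.3) by its quasi-likelihood test, with Benjamini-Hochberg adjustment over all genes tested and calls at an adjusted p under 0.05. Standard errors are the log2 fold change divided by the square root of F. Levels are CPM scaled by TMM over 18 libraries, with a prior count of 2 for log2 values. Positions and exon lengths came from GENCODE M21. Mice are separate animals, at 1 library each, and depth bounds only the counting part of the error.

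The members and lists were chosen with earlier results of these data known. Named genes are all 10 members, the 3 genes most correlated with each over 18 libraries with a mean level of 5 CPM or more, and from each list the called genes with the largest changes (up to 3 a direction) and the 2 most abundant. A few listed genes are counted but not reported here by name. Alternatives were DESeq2 1.42.0, its size factors, upper-quartile or total-count scaling, other filters and thresholds, a length trend, all libraries in 1 fit, consecutive library numbers and leaving out libraries. The test was checked on simulated counts.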

Additional observations from a re-analysis of the deposited data

How the results depend on the processing

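The count of members called lower on the diet was 7 and stayed between 5 and 7 over 23 alternatives, and that in FPC-LIPA against CON-GFP was 6 and ranged from 5 to 9. The count in FPC-LIPA against FPC-GFP was 2 and was less stable. It was 1 with total count alone (Cyp1a2 lost, adjusted p = 0.0637), 1 with the gene length trend removed (Slc1a2 lost, adjusted p = 0.0570), and 0 within library numbers 55 to 68, 0 without FPC-LIPA 36, 37 and 39 (an alternative chosen after seeing the data), 0 at 2-fold and 0 at an adjusted p under 0.01, and leaving out single libraries gave 0 to 4. No paired analysis was possible because the groups share no replicate numbers.

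Of the single-gene values, 576 kept direction and side of the threshold, 18 gained and 23 lost the call, and 32 changed sign, none of them a called value. On the diet, Axin2 turned to 0.0125 with upper-quartile factors, 0.18 with total count alone, 0.0268 within numbers 55 to 68 and up to 0.15 without single libraries (range -0.21 to 0.15), and Glul to 0.0442 with total count alone. In FPC-LIPA against FPC-GFP, Hal turned to 0.00217 with upper-quartile factors, 0.0479 with the length trend removed, 0.0316 within numbers 55 to 68, 0.17 without FPC-LIPA 36, 37 and 39 and up to 0.0965 without single libraries (range -0.18 to 0.0965). Rhbg turned to -0.0628 with total count alone, -0.0504 with no filter, -8.67e-05 with all libraries in 1 fit, -0.12 with the length trend removed, -0.13 within numbers 55 to 68 and down to -0.22 without single libraries (range -0.22 to 0.29), and it failed the filter of 1 CPM in 6 libraries. Sds turned to -0.0736 without FPC-LIPA 39 (range without single libraries -0.0736 to 0.41). Without FPC-LIPA 36, 37 and 39, Axin2 turned to 0.13 against FPC-GFP and 0.11 against CON-GFP, and Tbx3 to 0.13 against CON-GFP. The causes were not tested.

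Over the whole table, calls on the diet went from 3410 to 1352 in 1 fit of all libraries and 1995 within numbers 55 to 68. With LIPA on the FPC diet they went from 3102 to 1438 with total count alone, 4701 in 1 fit, 104 within numbers 55 to 68, 186 without FPC-LIPA 36, 37 and 39 and 1092 to 5582 without single libraries, and against CON-GFP from 3304 to 1402 within numbers 55 to 68. With total count alone the calls that were lower went from 1560 of 3410 to 692 of 4079 on the diet, from 1004 of 3102 to 266 of 1438 with LIPA and from 1184 of 3304 to 535 of 2902 against CON-GFP, and with upper-quartile factors to 575 of 2857 for LIPA. That scaling put the median of all genes at 0.21, -0.09 and 0.12.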
